A study of Mus with 3 samples.

Results

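CD8 T cells are the lymphocytes that carry the CD8 coreceptor and can kill cells whose MHC class I molecules show foreign peptide. They were picked here from single-cell RNA of whole mouse lung by a fixed gate on unique molecular identifiers (UMIs, counted RNA molecules). A cell needed at least 2 UMIs over Cd3d, Cd3e and Cd3g, which encode the invariant chains of the T cell receptor complex, and at least 1 UMI of Cd8b1, the beta chain of the coreceptor. It also had to hold 0 UMIs of Cd4, Rag1, Rag2, Dntt, Foxp3 and Cd79a, which mark helper and regulatory T cells, immature lymphocytes that rearrange their receptors, and B cells. The gate found 677 cells among 14441 kept cells. Of these, 276 came from wild-type mice that got PBS only (WT PBS), 257 from wild-type mice given ovalbumin, the egg protein used as an allergen (WT OVA), and 144 from ovalbumin-challenged mice without DJ-1, the Park7 product, a protein that senses oxidation (DJ-1 KO OVA).

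All animals were females aged 6-12 weeks. Each group is 1 library, made from the lung cells of 3 mice together, which leaves every comparison without replicates and without a test. The labels do not describe the DJ-1 allele further, and there was no DJ-1 KO group without ovalbumin. The WT PBS sample is titled as ovalbumin-challenged, but both the treatment label and the library's own name give PBS, which is used here. WT OVA enters both comparisons, WT OVA over WT PBS and DJ-1 KO OVA over WT OVA. Because measured genes chose the cells, everything below is a description. Brackets hold 95% intervals that cover counting error only. Values in threes follow the order WT PBS, WT OVA, then DJ-1 KO OVA, and pairs of values give the reference library before the one compared with it.

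A naive CD8 T cell recirculates through lymph nodes, which it enters with the help of the chemokine receptor CCR7, and keeps the transcription factors LEF1 and TCF1 (Tcf7). After it has met antigen it loses this set and gains stored chemokine such as CCL5, the granule membrane protein NKG7, granzymes and killer-lectin receptors. Lung holds naive cells that pass through with the blood as well as circulating and resident memory cells. The gate says nothing on this axis, and the description below turns on how naive genes (Lef1, Ccr7 and Dapl1, a small protein typical of naive CD8 cells) stand beside memory genes (Ccl5, Nkg7).

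The 3 libraries held between 4556 and 6406 barcodes. Median depth of the CD8 T cells was 5259.5, 2672 and 2228.5 UMIs, so WT PBS was the deepest and counted most molecules per cell. WT PBS and DJ-1 KO OVA shared 372 barcodes, of which the cell with fewer UMIs was left out. Among the CD8 T cells, 2 in WT PBS and 7 in DJ-1 KO OVA are the larger of such a pair, and none of the few barcodes shared with WT OVA belongs to a CD8 T cell. A total of 42 CD8 T cells (13 in WT PBS, 22 in WT OVA and 7 in DJ-1 KO OVA) gave over 1% of their UMIs to epithelial, myeloid and stromal markers. They weigh heavily on sums of UMIs. The 5 cells with most Sftpc (surfactant protein C, an alveolar epithelial product) held 93.2%, 77.9% and 94.4% of its UMIs among the CD8 T cells of their library. The summed level of the epithelial list in CD8 T cells was 3528, 19617 and 7254 CPM (UMIs per 1000000 UMIs of those cells). Levels are therefore given for all CD8 T cells and again for the 635 that remain without those 42, a choice made after seeing the data.

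The coreceptor genes lie side by side on chromosome 6 (GRCm38.p6), Cd8b1 at 71322788 to 71337492 and Cd8a at 71373427 to 71379171. Cd8a, the alpha chain, was not used by the gate, and stood at 323, 319 and 378 CPM. In B cells of the same libraries (Cd79a of at least 2 UMIs and no Cd3 UMI), which should lack it, Cd8a was at 1.26, 1.97 and 7.53 CPM. A Cd8a UMI was seen in 81.2% of CD8 T cells in WT PBS, 62.6% in WT OVA and 69.4% in DJ-1 KO OVA, and in 29.6%, 28.5% and 42.3% once each cell was thinned to 1000 UMIs. Among B cells, at median depths of 3045, 1330 and 1124.5 UMIs, the shares were 0.160%, 0.235% and 1.15%. Lef1 (chromosome 3, 131110297 to 131224357) and Dapl1 (chromosome 2, 59484653 to 59505020) were far above their B cell levels too, Lef1 at 17.2, 17.8 and 15.1 CPM and Dapl1 at 0 in B cells. Ccr7 is shared with B cells, which held it at 896, 1109 and 1094 CPM. Beside B cells, the label CD8 T cells thus holds on Cd8a in all 3 libraries. B cells cannot show whether thymocyte-like cells are among the gated cells, since some of those also held Cd3 and Cd8b1, as given below.

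The CD8 T cells were 7.06% of kept cells in WT PBS (6.28 to 7.91), 4.22% in WT OVA (3.73 to 4.75) and 3.24% in DJ-1 KO OVA (2.74 to 3.81). Of cells with at least 2 Cd3 UMIs they made up 25.9%, 20.3% and 12.2%. These shares move with depth. With every cell thinned to 1000 UMIs before the gate, the shares of kept cells were 1.48%, 1.19% and 1.33%, and those of Cd3 cells 12.0%, 12.3% and 9.91%, so no order of the libraries is read from them. The gate also worked unevenly. Of cells that passed on Cd3 and Cd8b1, the 6 excluded genes removed 18.8% in WT PBS, 14.0% in WT OVA and 68.1% in DJ-1 KO OVA. In the last, 241 of 452 such cells held Dntt and 227 held Rag1. Thymocyte-like cells with at least 2 UMIs over Rag1, Rag2 and Dntt numbered 29, 10 and 734.

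At the edge of the gate, cells with exactly 2 Cd3 UMIs numbered 11, 78 and 56 and held Cd8a at 526, 294 and 411 CPM. Cells just outside, with 1 Cd3 UMI and otherwise alike, numbered 4, 63 and 55 and held it at 377, 252 and 494 CPM. Cells with Cd8b1 at 0 held Cd8a at 45.9, 57.8 and 62.4 CPM, against 247, 275 and 424 CPM in those with exactly 1 Cd8b1 UMI. The Cd3 limit thus passes through CD8 T cells, while the Cd8b1 limit separates high from low Cd8a. Median depth just inside and just outside the Cd3 limit was 2421 and 3699.5 UMIs in WT PBS. It was 2345.5 and 2023 in WT OVA, and 2077.5 and 1765 in DJ-1 KO OVA.

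At full depth Ccl5 split the CD8 T cells into those without it and those with several UMIs, and naive genes were found on both sides. Ccl5 (chromosome 11, 83525778 to 83530518) was at 0 in 58.7%, 46.3% and 52.8% of CD8 T cells. It was at 3 or more UMIs in 34.4%, 48.2% and 41.0%, and few cells, 6.88%, 5.45% and 6.25%, lay between at 1 or 2. With each cell thinned to 1000 UMIs, 6.20%, 13.3% and 20.4% lay at 1 or 2, and 25.2%, 35.2% and 23.4% at 3 or more. In DJ-1 KO OVA these shares were near each other, so the split was not clear there at that depth. A Ccl5 UMI was found in 41.3%, 53.7% and 47.2% of CD8 T cells, beside 5.11%, 2.58% and 2.31% of B cells, whose median depths were 3045, 1330 and 1124.5 UMIs. The positive share is well above that background in each library. Lef1 stood at 608, 397 and 445 CPM in cells with Ccl5 at 0, against 198, 132 and 145 CPM in cells with 3 or more. Cells with 3 or more Ccl5 UMIs and a UMI of Lef1, Ccr7 or Dapl1 were 63 of 95, 48 of 124 and 32 of 59 cells with that much Ccl5. They made up 22.8%, 18.7% and 22.2% of CD8 T cells, and 6.93%, 6.64% and 2.92% with each cell thinned to 1000 UMIs.

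**Figure D1:**
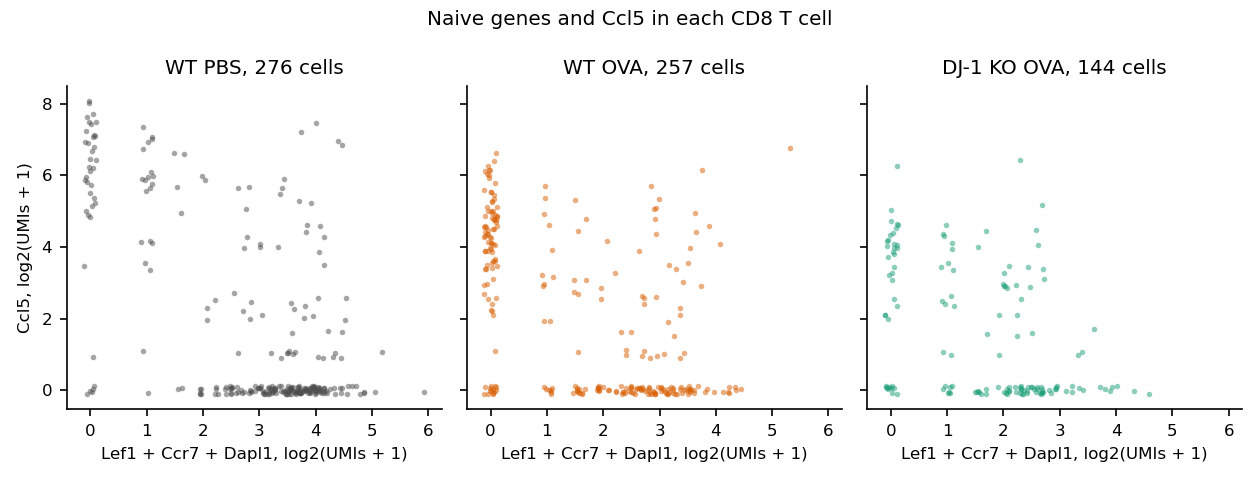
UMIs of Ccl5 (vertical axis) against the summed UMIs of Lef1, Ccr7 and Dapl1 (horizontal axis), both as log2 of UMIs + 1, for every CD8 T cell (276 in WT PBS, 257 in WT OVA, and 144 in DJ-1 KO OVA); points are shifted slightly at random so that they do not overlap. Cells with Ccl5 at 0 (58.7%, 46.3% and 52.8%) lie along the bottom, mostly with naive genes, and the upper cells lie along the left side without naive genes or further right with both. Raw UMIs move with depth, which was highest in WT PBS.

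Cells were sorted into 4 classes by detection alone. Naive-marked cells (a UMI of Lef1, Ccr7 or Dapl1 and none of Ccl5 or Nkg7) made up 25.0% of CD8 T cells in WT PBS (20 to 30.5), 26.8% in WT OVA (21.5 to 32.7) and 36.1% in DJ-1 KO OVA (28.3 to 44.5). Memory-marked cells (the reverse) made up 12.3% (8.68 to 16.8), 31.9% (26.3 to 38.0) and 20.8% (14.5 to 28.4). Cells with both were 61.2%, 37.7% and 38.2%, and cells with neither 1.45%, 3.50% and 4.86%. In WT PBS, 88 of the 169 cells with both had no Ccl5 and owed their place to Nkg7 alone, as did 36 of 97 in WT OVA and 14 of 55 in DJ-1 KO OVA.

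Thinning the gated cells to 1000 UMIs put the classes on 1 depth, with 2, 1 and 7 shallower cells left out. The gate itself was applied at full depth, which differed between the libraries. Cells with Cd8b1 that it missed for holding 1 Cd3 UMI numbered 4, 63 and 55. A Ccl5 UMI was found in 25%, 47.6% and 32.7% of them. What the missed cells would do to the shares below was not tested. Naive-marked cells were then 43.1% in WT PBS (37.1 to 49.2), 32.8% in WT OVA (27.1 to 38.9) and 40.1% in DJ-1 KO OVA (31.9 to 48.9). Memory-marked cells were 21.9% in WT PBS (17.1 to 27.3), 37.1% in WT OVA (31.2 to 43.3) and 35.8% in DJ-1 KO OVA (27.8 to 44.4). By this rule the ovalbumin libraries lay above WT PBS beyond counting error, and overlapped each other. The place of DJ-1 KO OVA depended on the rule. Cells with 3 or more Ccl5 UMIs after thinning were 25.2% in WT PBS (20.2 to 30.8), 35.2% in WT OVA (29.3 to 41.3) and 23.4% in DJ-1 KO OVA (16.6 to 31.3). Those of them without naive genes were 18.2%, 28.5% and 20.4%. WT OVA was thus the highest library under each of the 3 rules. DJ-1 KO OVA was near WT OVA by 1 of them and near WT PBS by the others. Those others ask for 3 or more Ccl5 UMIs, so they also depend on how much Ccl5 positive cells held. Thinned cells with no Ccl5 UMI were 68.6% in WT PBS, 51.6% in WT OVA and 56.2% in DJ-1 KO OVA. Their intervals were 62.8 to 74.1, 45.3 to 57.8 and 47.5 to 64.7. By presence of Ccl5 alone DJ-1 KO OVA thus lay nearer to WT OVA, with an interval that overlaps both wild-type libraries. Thinned cells with 1 or 2 Ccl5 UMIs were 6.20%, 13.3% and 20.4%. Without the 42 other-lineage cells the memory-marked shares at full depth were 12.5%, 31.5% and 20.4%.

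**Figure D2:**
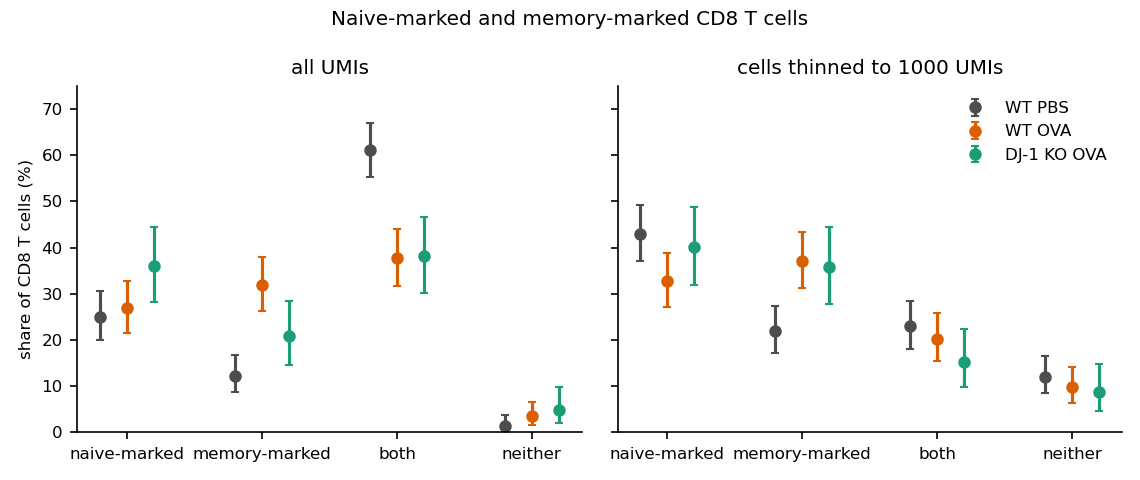
Share of CD8 T cells (percent, vertical axis) that are naive-marked, memory-marked, marked by both or by neither, with all UMIs (left) and with cells thinned to 1000 UMIs (right), for the 3 libraries; points are shares and bars their 95% Clopper-Pearson intervals. With the gated cells thinned, the memory-marked share is 21.9% in WT PBS, 37.1% in WT OVA and 35.8% in DJ-1 KO OVA. The gate was applied before thinning, at depths that differ between the libraries.

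The level of Ccl5 showed another pattern than its share. Over all CD8 T cells it was 3444 CPM in WT PBS, 3063 CPM in WT OVA and 1813 CPM in DJ-1 KO OVA. Within the cells with 3 or more Ccl5 UMIs, other-lineage cells left out (92, 114 and 54 cells), it was 9647, 7250 and 3739 CPM. This split uses Ccl5 itself, so the values are a description of how much positive cells held. The WT OVA level was 0.752 (0.717 to 0.788) of that in WT PBS and DJ-1 KO OVA at 0.516 (0.473 to 0.561) of WT OVA. Thinned to 1000 UMIs, cells with at least 10 Ccl5 UMIs were 16.4%, 16.8% and 3.65% of CD8 T cells. Nkg7 over all CD8 T cells did not follow it, at 516, 469 and 501 CPM.

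The naive rule genes differed in size. Dapl1 stood at 155 CPM in WT PBS (276 UMIs), 62.1 CPM in WT OVA (60 UMIs) and 42.6 CPM in DJ-1 KO OVA (21 UMIs). WT OVA was thus at 0.401 (0.298 to 0.531) of WT PBS, or 0.474 (0.348 to 0.636) without the other-lineage cells. Its further difference in DJ-1 KO OVA, 0.687 (0.397 to 1.15) of WT OVA, lies within counting error. Lef1 stood at 436, 274 and 296 CPM, with WT OVA at 0.629 (0.545 to 0.725) of WT PBS and at 0.777 (0.670 to 0.898) without the other-lineage cells. Ccr7 stood at 814, 783 and 648 CPM. A stricter exclusion also asked for 0 UMIs of Ncr1, Klrb1c, Cd79b, Ms4a1, Lyz2 and Sftpc. Under it Dapl1 turned direction between WT PBS and WT OVA, to a log2 ratio of 0.033. It left CD8 T cells at 1.69%, 0.968% and 1.60% of kept cells, against 7.06%, 4.22% and 3.24% by the main gate. The median CD8 T cell held 1, 1 and 0 Sftpc UMIs, so the stricter exclusion also removes cells with a single Sftpc UMI.

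To see what goes with these classes, genes other than the 5 that define them were compared between memory-marked and naive-marked cells inside each library. A companion is a gene at least 2-fold different in the same direction in all 3 libraries, with at least 20 UMIs over both classes of each. Of 2106 genes measured, 53 (2.52%) were companions on the memory side and 28 (1.33%) on the naive side. The classes were cut by measured genes of the same cells, so the companions describe the classes and test nothing.

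Granzyme genes and Klrc1 were among the 10 leading genes of the memory side. Granzyme A (Gzma), a protease of cytotoxic granules, went from 5.51 CPM in naive-marked to 2155 CPM in memory-marked cells of WT PBS, from 19.9 to 1472 CPM in WT OVA and from 0 to 2514 CPM in DJ-1 KO OVA. The ratios were 391, 74.1 and at least 121, the last against a floor of 3 UMIs. Granzyme B (Gzmb) was at 0, 0 and 6.91 CPM in naive-marked and at 536, 456 and 591 CPM in memory-marked cells. Klrc1, which encodes the inhibitory receptor NKG2A, was at 0, 0 and 27.6 CPM against 394, 494 and 508 CPM. In these genes the naive-marked cells of all 3 libraries were at or near 0. Both NK cell markers measured here, Gzma and Klre1, were companions, and the 3 measured stromal markers had a median log2 ratio of 3.27 with none a companion. The other-lineage cells were kept in, and their part and that of NK cells was not tested.

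The other leading memory-side genes act in killing, homing and protection. Fas ligand (Fasl), a death ligand, had 0 UMIs in naive-marked cells of every library and 181, 138 and 259 CPM in memory-marked cells, at least 21.8-fold, 11.6-fold and 12.5-fold higher. The fractalkine receptor Cx3cr1, found on effector cells in the blood, stood at 0, 11.9 and 0 CPM against 115, 149 and 240 CPM. Serpinb9, an inhibitor of granzyme B, was higher in memory-marked cells by 33.8-fold, 3.14-fold and 27.4-fold. Lgals1, Klre1 and the transcription factor gene Elf4 were also among the leading companions.

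On the naive side, Satb1, a chromatin organizer, stood at 1303, 1120 and 1630 CPM in naive-marked cells against 306, 280 and 240 CPM in memory-marked cells. Actn1, an actin crosslinker, had memory-marked levels of 0.0720, 0.241 and 0.289 of the naive-marked ones, and the phosphatase gene Dusp10 of 0.158, 0.262 and 0.154. Fam101b, Tdrp, Myb, Ift80, Nsg2 and Pik3ip1 were also among the leading genes of that side. Tcf7 followed at ratios of 0.323, 0.312 and 0.365, and the interleukin 7 receptor Il7r at 0.413, 0.400 and 0.129.

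**Figure D3:**
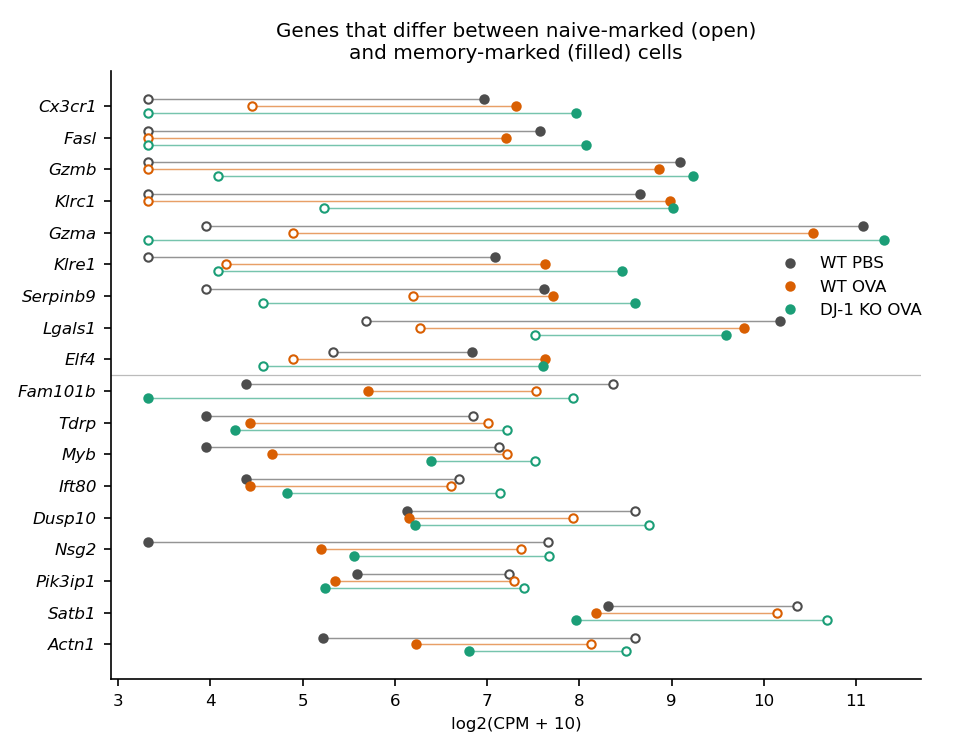
Levels of leading companions on the memory side (upper block) and on the naive side (lower block), as log2(CPM + 10), in naive-marked (open points) and memory-marked cells (filled points) of the 3 libraries. Each line joins the 2 classes of 1 library, and for every gene the filled points lie on the same side of the open ones in all 3 libraries.

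By list, 6 of 11 measured naive genes other than the rule genes were companions on the naive side, among them Tcf7, Satb1, Il7r, Actn1 and Il4ra. On the memory side stood 4 of 10 memory and effector genes (Ly6c2, Klrc1, Cx3cr1, Fasl), 4 of 7 cytotoxic granule genes (Gzma, Gzmb, Serpinb9, Serpinb6b) and 3 of 12 migration genes (among them the integrins Itgal and Itgb1). None of 16 genes of the T cell receptor complex and proximal signalling, 15 immediate early, 7 heat shock, 12 MHC class I or 14 oxidative phosphorylation genes was a companion.

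Between WT OVA and WT PBS, the CD8 T cells of ovalbumin-challenged mice held more RNA of many memory and effector, checkpoint and residency genes. Markers of other cells moved with this. The summed B cell markers were at 222 and 1032 CPM over all CD8 T cells, with 2 of 2 measured higher and Cd79a at 0 by the gate. Most of that sum was Cd74, at 167 and 751 CPM, and 5 cells of each library held 89.9% and 74.4% of its UMIs. The NK markers were at 502 and 810 CPM with 2 of 4 higher. The CD4 and regulatory T markers were at 152 and 238 CPM with 2 of 4 higher and Cd4 and Foxp3 at 0. The NK list includes Gzma and the CD4 list Ctla4, which are also given below among genes of the CD8 T cells. Those 2 sums are thus not a measure of other cells alone. What part other cells had in the differences below was not tested. List members with at least 20 UMIs over both libraries were counted when at least 1.5-fold different. Over all 8760 genes so measured, 19.4% were that much higher and 9% lower in WT OVA, with a median log2 ratio of 0.11. Without the other-lineage cells the shares over 7810 genes were 18.7% and 8.86% and the median 0.13. Scaling by a trimmed mean in place of the total moved the median of all genes to -0.06, so ratios of this comparison are read against that shift. The same change moved the median of DJ-1 KO OVA over WT OVA from 0.11 to -0.02.

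Of 23 memory and effector genes, 12 were higher and none lower, with a median log2 ratio of 0.59, and without the other-lineage cells 13 of 22 with a median of 0.66. Cd44, the adhesion receptor of antigen-experienced T cells, stood at 158 and 414 CPM, 2.62-fold (2.25 to 3.07), and at 90.2 and 282 CPM without the other-lineage cells, 3.13-fold (2.51 to 3.91). The chemokine gene Ccl4 stood at 65.1 and 216 CPM, 3.32-fold (2.63 to 4.2), and 3.46-fold without those cells. Klrc1 stood at 84.2 and 186 CPM, 2.21-fold (1.77 to 2.77), and 2.57-fold without them. These 3 genes were clearly apart between the libraries on either set of cells.

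Smaller differences were found in receptors and factors that support memory cells. Il2rb, the shared receptor chain for interleukins 2 and 15, stood at 163 and 243 CPM, 1.49-fold (1.25 to 1.78), and at 1.78-fold (1.48 to 2.13) without the other-lineage cells. The transcription factor Tbx21 (T-bet) stood at 19.1 and 35.2 CPM, 1.84-fold (1.11 to 3.06), and Eomes at 30.3 and 45.5 CPM, 1.5-fold (0.985 to 2.28), which reaches no difference. Tnf, a cytokine that myeloid cells also make, shows what the other-lineage cells do. Tnf stood at 15.7 and 211 CPM over all CD8 T cells but at 6.31 and 18.5 CPM without the 42 cells. Not every memory gene differed. Ly6c2 stood at 404 and 358 CPM, Klrd1 at 176 and 146 CPM and interferon gamma (Ifng) at 14.6 and 14.5 CPM.

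Of 11 cytotoxic granule genes, 3 were higher and none lower over all cells (median 0.51), a share near that of all genes, and 7 of 11 without the other-lineage cells (median 0.63). Gzma stood at 431 and 619 CPM, 1.44-fold (1.29 to 1.60), and 1.69-fold (1.51 to 1.89) without those cells. Gzmk, a granzyme of early memory cells, stood at 31.4 and 56.9 CPM, 1.81-fold (1.22 to 2.67), and Serpinb9 at 60.1 and 113 CPM, 1.88-fold (1.42 to 2.48). Srgn, which packs granule contents, did not share this, at 570 and 465 CPM. The pore-forming protein gene Prf1 had too few UMIs to place, at 11.8 and 15.5 CPM (ratio 1.32, 0.631 to 2.68).

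Of 11 costimulation and checkpoint genes, 5 were higher and none lower (median 0.32), and 6 of 11 without the other-lineage cells (median 0.62). Ctla4, an inhibitory receptor for B7 molecules, stood at 76.3 and 138 CPM, 1.80-fold (1.41 to 2.31), and 2.41-fold (1.87 to 3.1) without those cells. Pdcd1 (PD-1) stood at 12.3 and 27.9 CPM, 2.26-fold (1.24 to 4.17), and Lag3 at 4.49 and 21.7 CPM, 4.84-fold (2.06 to 12.6). The costimulatory receptor Tnfrsf9 (4-1BB) stood at 5.61 and 29.0 CPM, 5.16-fold (2.43 to 11.9). The last 3 genes were rare, with between 8 and 28 UMIs per library, and their intervals are wide.

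Of 10 measured tissue residency genes, 5 were higher and 1 lower (median 0.53), and 3 of 9 without the other-lineage cells. Rgs1, which dampens chemokine signalling, stood at 175 and 410 CPM, 2.35-fold (2.02 to 2.73), and 2.28-fold without those cells. Cd69, which retains T cells in tissue and also marks recent activation, stood at 125 and 169 CPM, 1.35-fold (1.10 to 1.66). Under the stricter exclusion, which left far fewer cells, the residency median was -0.04 and the Cd69 log2 ratio -0.05. Itgae (CD103), the integrin that binds epithelium, was the one that was lower, at 43.2 and 25.9 CPM, a ratio of 0.598 (0.365 to 0.950). Among migration genes, 4 of 16 were higher over all cells and 8 of 16 without the other-lineage cells. The chemokine receptor Ccr2 stood at 56.1 and 115 CPM, 2.05-fold (1.55 to 2.71).

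Naive genes gave a different reading with and without the other-lineage cells. Of 17, 5 were lower and none higher over all cells (median -0.24), but 1 of 17, Dapl1, without them (median 0.02). Il7r, needed for survival at rest, stood at 524 and 324 CPM, 0.618-fold (0.542 to 0.703), and at 0.694 (0.604 to 0.796) without those cells. Satb1 stood at 948 and 801 CPM. The lower Dapl1 and Il7r of WT OVA were thus also seen without the other-lineage cells.

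Among other lists, 11 of 18 immediate early genes were higher over all cells (median 0.67) and 6 of 17 without the other-lineage cells (median 0.46). Junb, an AP-1 subunit, was at 1827 and 2676 CPM, 1.46-fold (1.39 to 1.54), and 1.57-fold without those cells. Nr4a1, an early target of receptor signalling, stood at 153 and 300 CPM, 1.97-fold (1.66 to 2.33), and 1.89-fold without them. Not every member held. Jun and Atf3 turned direction without the other-lineage cells, from log2 ratios of 0.62 and 1.26 to -0.42 and -0.07. Under the stricter exclusion, on far fewer cells, Egr1 and Fosb turned from 0.63 and 1.11 to -1.67 and -0.07. Of 16 antioxidant genes 6 were higher over all cells, but 2 of 15 without the other-lineage cells, one of them Sod1 at 185 and 379 CPM there, 2.04-fold (1.73 to 2.42). No MHC class I gene of 12 passed 1.5-fold in either direction over all cells. T cell receptor genes had 0 of 17 higher and 2 lower over all cells, and 2 higher and none lower without those cells.

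Type 2 cytokines were nearly absent. Il4 had 0, 1 and 1 UMIs, Il13 0, 0 and 2, and Il5 0 in each. Il1rl1, the receptor for interleukin 33, had 0 UMIs in WT PBS, 16 in WT OVA and 14 in DJ-1 KO OVA. Gata3, which helper type 2 cells use and CD8 T cells also express, stood at 35.9, 60.0 and 97.4 CPM. WT OVA was 1.67-fold (1.15 to 2.42) above WT PBS, and DJ-1 KO OVA 1.62-fold (1.08 to 2.42) above WT OVA.

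Because WT OVA held more cells with Ccl5, levels were also compared inside cells with Ccl5 at 0 (152, 107 and 74 cells) and at 3 or more UMIs, the other-lineage cells left out. Among all genes 19.6% were at least 1.5-fold higher in WT OVA at Ccl5 of 0 and 12.6% lower, and 19.3% higher and 10.3% lower at 3 or more. Cd44 was at 42.7 and 257 CPM in cells without Ccl5, 6.02-fold (4.01 to 9.22), and at 159 and 297 CPM in cells with 3 or more, 1.87-fold (1.40 to 2.50). Ctla4 was higher in both, at 78.1 and 182 CPM and at 74.5 and 150 CPM. Dapl1 was lower in cells without Ccl5, at 222 and 122 CPM, a ratio of 0.551 (0.379 to 0.782). The higher Cd44 and Ctla4 of WT OVA were thus found inside both sets of cells. The sets were cut on raw Ccl5 UMIs at full depth, which was lower in WT OVA. They need not hold the same mix of cells in both libraries.

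Inside cells with 3 or more Ccl5 UMIs, 5 of 20 memory genes were higher and 1 lower (median 0.26), and 4 of 11 cytotoxic genes were higher (median 0.38). Gzma was at 1164 and 1529 CPM there, 1.31-fold (1.17 to 1.47), and Klrc1 at 238 and 470 CPM, 1.97-fold (1.57 to 2.49). For the memory list the share higher, 5 of 20, is near that of all genes. An innate-like pair differed more. Tyrobp, the adaptor of activating killer receptors, went from 16.6 to 165 CPM, 9.95-fold (5.03 to 21.9), and Klrb1c (NK1.1) from 9.93 to 76.4 CPM, 7.70-fold (3.1 to 22.9). Both are also natural killer cell genes. Over all CD8 T cells the NK marker list, which includes Gzma, summed to 502, 810 and 1165 CPM against 11053, 9875 and 11292 CPM in NK cells. What part NK cells had in these genes was not tested.

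**Figure D4:**
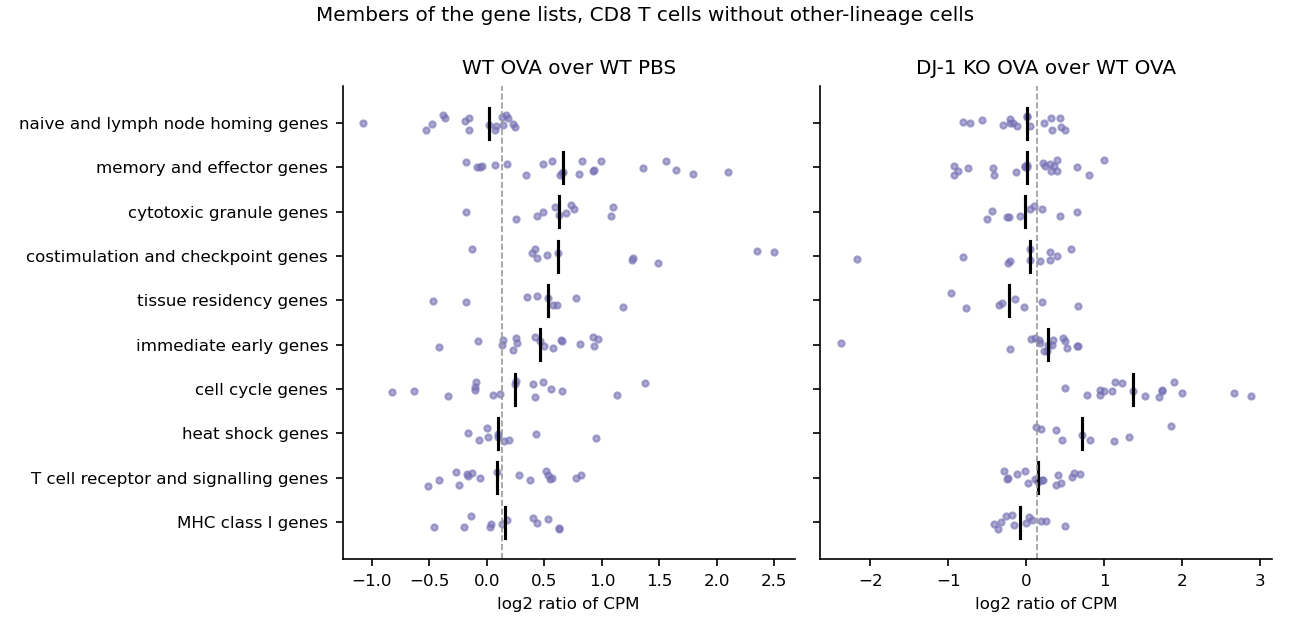
Log2 ratio of CPM (horizontal axis) of each measured member of 10 gene lists in the 635 CD8 T cells without other-lineage cells, for WT OVA over WT PBS (left) and DJ-1 KO OVA over WT OVA (right). Points are genes, black bars list medians and the dashed line the median of all genes (0.13 and 0.14); memory, cytotoxic and checkpoint medians of 0.66, 0.63 and 0.62 lie right of it on the left, and the cell cycle (1.38) and heat shock (0.72) medians on the right.

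In DJ-1 KO OVA, the targeted gene was checked before any other. Park7 (chromosome 4, 150897133 to 150909921) stood at 172 CPM in WT PBS, 122 CPM in WT OVA and 12.2 CPM in DJ-1 KO OVA, from 306, 118 and 6 UMIs. DJ-1 KO OVA was at 0.0998 (0.0359 to 0.224) of WT OVA. A Park7 UMI was found in 81 CD8 T cells in WT OVA and in 5 in DJ-1 KO OVA, so the library goes with its label without being at 0. Which part of the gene is deleted is not given, so the remaining UMIs cannot be placed. Pink1, a mitochondrial kinase gene also linked to Parkinson disease, stood at 60.6, 40.4 and 10.2 CPM, with DJ-1 KO OVA at 0.252 (0.0774 to 0.639) of WT OVA on 5 UMIs.

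The CD8 T cells of DJ-1 KO OVA held more RNA of cell cycle genes and of several heat shock genes than those of WT OVA, and less Ccl5. By list median, markers of other cells aside, the cell cycle genes (1.00), the short list of DJ-1 and other Parkinson disease genes (-0.74), which holds Park7, and the type 2 genes (0.60, with 2 of 4 higher) were past 1.5-fold. Of 7408 genes measured, 16.3% were at least 1.5-fold higher and 11.6% lower in DJ-1 KO OVA, with a median log2 ratio of 0.11. Without the other-lineage cells it was 18.6% and 10.1% of 6106 genes, with a median of 0.14.

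Of 17 measured cell cycle genes, 16 were higher and none lower (median 1.00), and 16 of 17 without the other-lineage cells (median 1.38). Pcna, the sliding clamp of DNA replication, stood at 148, 133 and 286 CPM, so DJ-1 KO OVA was at 2.14-fold (1.68 to 2.74) of WT OVA. Mcm5, part of the replicative helicase, stood at 33.7, 42.4 and 134 CPM, 3.16-fold (2.11 to 4.78). Top2a, a topoisomerase of dividing cells, stood at 62.3, 91.1 and 191 CPM, 2.10-fold (1.55 to 2.84), and the proliferation marker Mki67 at 35.4, 40.4 and 73.1 CPM, 1.81-fold (1.12 to 2.92). In each of these 4 genes DJ-1 KO OVA was the highest library and the wild-type libraries lay nearer to each other than to it.

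Most UMIs of dividing-cell genes lay in few cells. Cells with at least 3 UMIs over Mki67, Top2a, Rrm2, Ube2c, Birc5, Cdk1, Ccna2 and Ccnb2 numbered 11 in WT PBS (3.99%, 2.01 to 7.02), 9 in WT OVA (3.50%, 1.61 to 6.54) and 15 in DJ-1 KO OVA (10.4%, 5.95 to 16.6). They held 92.1%, 88.0% and 94.8% of the UMIs of those 8 genes. Thinned to 1000 UMIs the counts were 3, 6 and 9 cells, or 1.09%, 2.34% and 6.57% (3.05 to 12.1), and the intervals of WT OVA and DJ-1 KO OVA overlap. Without these cells, 1 of 8 measured cell cycle genes was higher in DJ-1 KO OVA, with a median of 0.26 and a summed ratio of 1.39 (1.27 to 1.51). These cells were chosen by cell cycle UMIs, so part of that drop follows from the choice. Of the 15 in DJ-1 KO OVA, 8 were memory-marked, 6 carried both sets and 1 was naive-marked.

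The cycling genes were highest where Ccl5 was. In cells with 3 or more Ccl5 UMIs, 15 of 15 measured cell cycle genes were higher in DJ-1 KO OVA (median 1.66), where 21.1% of all genes were, and Top2a stood at 126 and 434 CPM, 3.43-fold (2.34 to 5.09). In cells with Ccl5 at 0, 5 of 8 were higher (median 0.70), where 20.7% of all genes were, and Top2a stood at 65.9 and 64.9 CPM. CD4 T cells of the same libraries, gated alike on Cd4, held summed cell cycle levels of 2218, 3542 and 4725 CPM, against 2077, 2489 and 4801 CPM in CD8 T cells. DJ-1 KO OVA was thus the highest library in both kinds of T cell.

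Thymocytes divide, and DJ-1 KO OVA held most thymocyte-like cells, so markers of those cells are given beside this result. Thymocyte genes in CD8 T cells summed to 1317, 1179 and 1671 CPM, against 6990, 4096 and 8643 CPM in the cells with Rag1, Rag2 or Dntt. Of 15 listed genes 7 were measured, and 3 of these were higher in DJ-1 KO OVA (median 0.47). Itm2a, a membrane protein of developing and activated T cells, stood at 26.4, 27.9 and 102 CPM, 3.63-fold (2.23 to 6.04), Cd24a at 8.98, 17.6 and 44.7 CPM and Themis, needed for thymic selection, at 83.1, 63.1 and 108 CPM. Rag1, Rag2 and Dntt are at 0 by the gate.

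Of 10 heat shock genes, 5 were higher and 1 lower in DJ-1 KO OVA (median 0.54), and 5 of 9 were higher and none lower without the other-lineage cells (median 0.72). Hsph1, a co-chaperone of HSP70, stood at 24.7, 44.5 and 114 CPM, 2.56-fold (1.69 to 3.90) above WT OVA. The mitochondrial chaperone Hspd1 stood at 102, 115 and 229 CPM, 2.0-fold (1.52 to 2.62), and the abundant Hsp90ab1 at 1084, 1077 and 1634 CPM, 1.52-fold (1.38 to 1.67). Of the inducible genes, Hspa1b was at 23, 45.5 and 95.4 CPM and Hspa1a at 24.7, 63.1 and 24.4 CPM. Hspa1b turned direction against WT OVA, to a log2 ratio of -0.063, with Cd8b1 of at least 2 UMIs. The heat shock median was 0.63 without the cycling cells, so this difference was no smaller outside them. In cells with Ccl5 at 0, Hspd1 stood at 97.2 and 324 CPM, 3.34-fold (2.11 to 5.36), and in cells with 3 or more at 121 and 135 CPM.

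Memory and effector genes went both ways. Of 22 measured, 2 were higher and 3 lower in DJ-1 KO OVA (median 0.12), and 3 and 4 of 21 without the other-lineage cells (median 0.01). Ccl5 over all CD8 T cells was at 0.592 (0.549 to 0.638) of WT OVA, and at 0.525 (0.482 to 0.571) without those cells. Fasl was on the other side, at 61.0 and 116 CPM, 1.90-fold (1.29 to 2.78). Ccl4 depended on the other-lineage cells. It stood at 216 and 309 CPM over all cells, 1.43-fold (1.15 to 1.77), and at 185 and 97.8 CPM without them, a ratio of 0.528 (0.356 to 0.765). Cd44 stood at 414 and 264 CPM, a ratio of 0.638 (0.519 to 0.779), and 0.749 (0.570 to 0.976) without those cells. Under the stricter exclusion, on fewer cells, the Cd44 log2 ratio was 0.31.

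Among cytotoxic genes 2 of 11 were higher and none lower (median 0.24), 18.2% beside 16.3% of all genes. Without the other-lineage cells 1 of 10 was higher and none lower (median -0.02), with a summed ratio of 1.06 (0.980 to 1.15). The list as a whole thus showed no difference there beyond counting error. Gzma stood at 619 CPM in WT OVA and 938 CPM in DJ-1 KO OVA, 1.52-fold (1.34 to 1.71). Without the other-lineage cells the ratio was 1.35 (1.18 to 1.54). Gzmb stood at 162 and 203 CPM, 1.25-fold (0.963 to 1.62), and Srgn at 465 and 317 CPM, a ratio of 0.682 (0.564 to 0.820). In these CD8 T cells Gzma and Ccl5 thus differed in opposite directions between the same libraries.

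The homing side showed few differences. Of 17 naive genes none was higher and 2 were lower, Bach2, a repressor of effector genes, at 78.6 and 42.6 CPM (ratio 0.542, 0.318 to 0.889) and Igfbp4 at 166 and 87.3 CPM (0.527, 0.367 to 0.742). Satb1 stood at 801 and 1113 CPM, 1.39-fold (1.24 to 1.55). Ccr2 stood at 115 and 71.1 CPM over all CD8 T cells, a ratio of 0.619 (0.410 to 0.912), and the integrin chain Itgb1 at 267 and 459 CPM, 1.72-fold (1.43 to 2.06). No MHC class I gene of 12 passed 1.5-fold in either direction, with or without the other-lineage cells.

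Tyrobp, high in WT OVA, stood at 171 CPM there and 46.7 CPM in DJ-1 KO OVA, a ratio of 0.274 (0.169 to 0.425). In cells with 3 or more Ccl5 UMIs it stood at 165 and 16.3 CPM, or 56 and 3 UMIs, a ratio of 0.0987 (0.0198 to 0.304). Tyrobp was thus near its WT PBS level of 16.6 CPM in those cells. The gamma delta, NKT and innate-like list, over all 635 cells without other-lineage cells, had 2 of 4 measured genes lower and none higher (median -0.94). Antioxidant genes, of interest for a redox protein, had 1 of 15 higher and 1 lower over all cells, and 5 of 14 higher without the other-lineage cells (median 0.46). Gpx1 was 1.77-fold (1.34 to 2.34) higher there, at 155 and 275 CPM, but stood at 351 and 345 CPM over all cells.

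Beside CD4 T cells (305, 219 and 176 cells with Cd4 and no Cd8a or Cd8b1), 29 of 6685 measured genes (0.434%) were at least 2-fold higher in CD8 T cells in all 3 libraries and 45 (0.673%) lower. Both kinds were gated on measured genes, so this too is a description. Klrc1 stood at 84.2, 186 and 248 CPM in CD8 and at 8.72, 8.58 and 27.7 CPM in CD4 T cells. Eomes, a factor of CD8 memory, was higher by 4.74-fold, 2.45-fold and 5.51-fold, Klrd1 by 4.46-fold, 3.29-fold and 9.89-fold and Gzmk by 4.16-fold, 4.97-fold and 3.06-fold. Ccl5 was higher by 4.73-fold, 5.85-fold and 2.81-fold. On the other side, Cd40lg, the helper ligand for B cells, was at 0.0464, 0.0546 and 0.0794 of its CD4 level, Gata3 at 0.391, 0.282 and 0.157 and Ctla4 at 0.429, 0.318 and 0.231. The other-lineage cells were kept in here, and some of the 29 genes were seen in few CD8 T cells, such as C4b in 9, 7 and 7 and Efemp1 in 4, 8 and 1 (named after their values were seen).

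Ranked over the whole table, the largest ratios mostly trace to very few cells. Of 7647 genes with at least 30 UMIs, 521 (6.81%) were at least 2-fold higher in WT OVA over WT PBS and 160 (2.09%) were lower. Without the other-lineage cells it was 4.37% and 2.12% of 6780. Among the 8 highest, of genes with at least 50 UMIs, were Ereg, Ccl20, Igfbp5, Il1a, Tm4sf1, Enah and Cxcl10. All 83 Ccl20 UMIs lay in 1 cell, and the 453 of Igfbp5 in 5. At the low end Wbscr22, a methyltransferase gene of ribosome assembly, went from 28.1 CPM in 45 cells to 5.17 CPM in 5 cells, a ratio of 0.184 (0.0574 to 0.460). Crispld2, Psme2b, Whamm, Surf2, Zcchc4, Atf5 and Wdr46 were the other 7, and of the 8 only Crispld2 and Atf5 rested on fewer than 20 cells of WT PBS.

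In DJ-1 KO OVA over WT OVA, 209 of 6087 genes (3.43%) were at least 2-fold higher and 197 (3.24%) lower, and 3.95% and 2.23% of 4931 without the other-lineage cells. The highest were Rnase2a, Cxcl3, Chia1, Ccdc163, Ccl17, Ch25h, Mt2 and Ctsk, each found in between 2 and 12 cells of DJ-1 KO OVA. With both cells of each shared barcode left out, the log2 ratio turned to -1.96 for Ccl17, -0.010 for Chia1, -0.89 for Mt2 and -4.70 for Ctsk. Rnase2a held 49 UMIs in 2 cells, and Chia1, an acidic chitinase, 188 UMIs in 4. Among the 8 lowest were Ereg, Enah, Spp1, Park7, Tm4sf1, Rell1 and Cybb. Of these, Park7 and Rell1 were spread over cells. Rell1, which encodes a relative of a TNF receptor family member, went from 77.6 CPM in 50 cells to 16.2 CPM in 7 cells, a ratio of 0.209 (0.0872 to 0.434).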

How the data were processed

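The labels' protocols describe cells of whole lung run on the Chromium 3′ v3 kit, and the submitters' processing notes name Cell Ranger, STAR and mm10. The authors deposited filtered matrices of UMI counts per gene and cell, and per the file headers these were written by software version 3.1.0; values are whole-number counts. Barcodes under 200 genes or over 20% mitochondrial UMIs were dropped, as was the smaller cell of each barcode shared by WT PBS and DJ-1 KO OVA. Counts of the gated cells were summed per library and scaled to 1000000. Ratios carry conditional binomial intervals, shares Clopper-Pearson intervals. With 1 library per group there was no test. The ratio calculation was tested on simulated data. Members and lists were chosen with earlier results of these data known.

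Named genes are the gate and class genes, list members with at least 20 UMIs or at or near 0, the 8 highest and 8 lowest of each comparison among genes with at least 50 UMIs (mitochondrial, ribosomal, haemoglobin, immunoglobulin and unnamed genes left out, and CPM in CD8 T cells at least 0.5 of that in other kept cells), and 10 companions on each side. Scrublet (scanpy 1.11.5) called 2, 8 and 0 of the CD8 T cells as doublets, in the order WT PBS, WT OVA, then DJ-1 KO OVA. Its rate over all cells of DJ-1 KO OVA, 0.0666%, was too low for it to have worked there, and doublets were kept in. Python 3.11.15, NumPy 2.4.6, SciPy 1.17.1 and matplotlib 3.10.9 were used. Other gates, filters, scalings and thinning were tried as alternatives. Some genes that this rule names are not reported here.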

Additional observations from a re-analysis of the deposited data

How the results depend on the processing

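A turn of direction was counted only where the main value was at least 2-fold for a gene or 1.5-fold for a list median. By that rule 11 of 6539 alternative values of single genes turned, and 1 of 598 for list medians. The 6539 and 598 include values under these limits, which could not be counted. Some of those smaller differences also turned, among them ones of Cd44, Ccl4, Cd69 and the residency list. Shares below are in the order WT PBS, WT OVA, then DJ-1 KO OVA. Shares of Cd3 cells were 21.0, 12.7 and 8.50% with Cd8a also required, 20.5, 9.80 and 6.20% with Cd8b1 of at least 2, 6.20, 4.66 and 6.03% with Ncr1, Klrb1c, Cd79b, Ms4a1, Lyz2 and Sftpc also at 0 (the stricter exclusion), and 12.0, 12.3 and 9.91% thinned before gating. With a Cd3 sum of at least 3, WT OVA was at 14.2% and DJ-1 KO OVA at 7.48%. Shares of kept cells were 5.73, 2.64 and 2.25%, 5.58, 2.04 and 1.64%, 1.69, 0.968 and 1.60%, and 1.48, 1.19 and 1.33% in that order of settings, and 2.94% and 1.98% with the higher Cd3 sum.

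Memory-marked shares were 21.9% in WT PBS and 35.8% in DJ-1 KO OVA thinned, and 34.4, 48.2 and 41.0% when set by Ccl5 of at least 3 alone. Naive-marked shares were 43.1% in WT PBS and 32.8% in WT OVA thinned, 56.9, 40.9 and 45.8% by Ccl5 alone, 31.8% in WT PBS with the stricter exclusion and 20.2% in WT OVA with Cd8b1 of at least 2. Companions were 35 and 14 on the memory and naive sides with the higher Cd3 sum, 31 and 11 with Cd8b1 of at least 2, and 25 and 11 with the stricter exclusion, and 12 on the naive side with Cd8a required.

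Counts of genes are not compared between settings here, because cell and UMI limits change how many genes are measured. Genes past 2-fold in WT OVA over WT PBS were 521 higher and 160 lower of 7647 in the main values. They were 84 and 83 with the stricter exclusion, and 296 of 6780 (4.37%) were higher without other-lineage cells. Other settings gave 1327 and 609 at 1.5-fold, 1156 and 441 at a minimum of 10 UMIs, and 160 and 36 at 100. Those lower were 244 without mitochondrial and ribosomal genes, 263 with a trimmed mean and 286 with Cd8b1 of at least 2. In DJ-1 KO OVA over WT OVA the main values were 209 higher and 197 lower of 6087. They were 901 and 568 at 1.5-fold, 578 and 747 at 10 UMIs, and 40 and 37 at 100. Those lower were 30 with the stricter exclusion, 491 without either cell of a shared barcode and 110 of 4931 (2.23%) without other-lineage cells. Lists with a median past 1.5-fold numbered 3 in each comparison. In DJ-1 KO OVA over WT OVA there were 5 without shared barcodes and 5 with cells weighted alike. In WT OVA over WT PBS there was 1 without mitochondrial and ribosomal genes, and 5 each without cycling cells and with list members of at least 10 UMIs.

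Only genes at least 2-fold apart in the main values are named here. Direction turned in log2 ratios of WT OVA over WT PBS for Atf3 (-0.074) and Cybb (-0.032) without other-lineage cells. It turned for Dapl1 (0.033) and Fosb (-0.072) with the stricter exclusion. In DJ-1 KO OVA over WT OVA it turned without shared barcodes for Ccl17 (-1.96), Chia1 (-0.010), Ctsk (-4.70), Ier3 (-1.27) and Mt2 (-0.89), and with Cd8b1 of at least 2 for Hspa1b (-0.063) and Igfbp5 (4.51). The median of the DJ-1 list was 1.39 with the stricter exclusion. The cause was not tested. No paired analysis was possible because each group is 1 library and all carry the same number, and no replicate could be left out. Depth limits genes of few UMIs, as their intervals show.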

Other observations

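The ranking over all genes was led by genes of very few cells. A further ranking, chosen after the data were seen, used the 635 CD8 T cells without other-lineage cells. It took genes with a UMI in at least 10% of those cells in the library where the gene was higher. Genes thus entered by the side on which they were high, so the counts and ranks are a description only. In WT OVA over WT PBS, 114 of 4218 such genes (2.7%) were at least 2-fold higher and 44 (1.04%) lower. Fgl2, which encodes a secreted fibrinogen-like protein of T cells, stood at 8.83 and 65.6 CPM, 7.42-fold (4.01 to 14.6), and was 3.41-fold higher in CD4 T cells. Bhlhe40, a transcription factor of activated and resident T cells, stood at 81.4 and 301 CPM, 3.7-fold (2.96 to 4.64), against 2.09-fold in CD4 T cells. The adenosine receptor Adora2a stood at 20.8 and 81.3 CPM, 3.9-fold, against 2.1-fold. On the low side Ppp1r12a, a subunit of myosin phosphatase, stood at 95.3 and 39.9 CPM, a ratio of 0.419 (0.269 to 0.630), against 0.654 in CD4 T cells. Whether CD8 and CD4 T cells differ in these ratios was not tested.

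In DJ-1 KO OVA over WT OVA, 79 of 3055 such genes (2.59%) were at least 2-fold higher and 22 (0.72%) lower. Lig1, the ligase that seals replicated DNA, stood at 27.1 and 119 CPM, 4.39-fold (2.52 to 7.95), beside 1.93-fold in CD4 T cells. Ubxn11 stood at 37.1 and 151 CPM, 4.06-fold (2.51 to 6.73), beside 3.95-fold. Tnfrsf1b, the second TNF receptor, stood at 130 and 50.2 CPM, a ratio of 0.387, while its ratio in CD4 T cells was 0.928. These genes were picked after their values were seen, and no cause of their differences was tested.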
